A study of Mus musculus with 4 samples.

Results

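The homeobox developmental factor genes described here are 115 of the 21853 protein-coding genes of GENCODE M21 on GRCm38 (mm10). They were taken by symbol from the Hox, Nkx, Lhx, Pax, Irx, sine oculis-related, Pou, Otx, Gbx, En, Msx, Barhl, Isl, Meis and Pbx families, without Lhx2 and Lhx6. The mark measured was a histone acetylation, H3K27ac, found at active promoters and enhancers, by ChIP-seq of hippocampal layer tissue. The tissue came from male B6CASTF1/J mice aged 2 months, an F1 hybrid strain, in 2 pools named C and D of 7 biosamples each. The 4 samples, 2 technical replicates per pool, formed 1 group with no treated or control arm, so no test between groups was possible and the values are descriptions. The pool was the unit of replication.

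Homeodomain proteins bind DNA through a folded domain of helices and set up body regions, brain areas and cell types in the embryo. Hox genes lie in clusters and pattern the hindbrain and trunk, while Pbx and Meis proteins are their DNA-binding partners and are also used without them in the forebrain. Many genes of these families are held silent outside their own region by Polycomb complexes, which methylate the residue that is acetylated in H3K27ac, and many have CpG-rich promoters.

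A gene is called marked where a deposited peak lay within 1 kb of any of its annotated transcription start sites (TSSs). The lists used were a replicated list from both pools (88930 peaks) and the lists of pool C (94836 peaks) and pool D (63623 peaks). The read depth behind them is unknown, so an unmarked gene is one where no peak was detected at this depth. Peak signals are as the authors deposited them, with no stated scaling, and are compared only within a list. In whole tissue, a mark in few cells and a weak mark in many cells cannot be told apart.

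Markers of the labelled tissue were marked in part. All 6 excitatory neuron markers, all 5 astrocyte markers, all 4 oligodendrocyte markers and all 4 endothelial markers were marked in the replicated list, while none of 4 markers of cerebellum and hindbrain were. The share over all protein-coding genes in that list was 61.6%. Of 5 markers of thalamus and habenula, regions next to the hippocampus, 4 were marked, with signals between 4.88 at Gng8 and 13.12 at Rora. The fifth, Tac2, was not marked. Whether tissue of those regions was included was not tested. Of 6 markers of choroid plexus and ependyma, 3 were marked, and Folr1, Kcnj13 and Aqp1 were not. Of 6 interneuron markers, Gad1 (signal 12.38) and Gad2 (3.01) were marked, and Slc32a1, Sst, Pvalb and Vip were not. Of the microglia markers 3 of 5 were marked, and of the oligodendrocyte precursor markers 3 of 4.

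The promoters below show members at both ends of the range, with CG dinucleotides in capitals. Each is the 250 bases upstream of a RefSeq start on GRCm38.p6, read 5′ to 3′ on the gene's strand. Pbx2 had the highest promoter signal of all members and lies at chr17:34592009-34592258 on the plus strand, inside an intron of an alternative Pbx2 transcript. All 250 of its bases were in a peak.
Pbx2: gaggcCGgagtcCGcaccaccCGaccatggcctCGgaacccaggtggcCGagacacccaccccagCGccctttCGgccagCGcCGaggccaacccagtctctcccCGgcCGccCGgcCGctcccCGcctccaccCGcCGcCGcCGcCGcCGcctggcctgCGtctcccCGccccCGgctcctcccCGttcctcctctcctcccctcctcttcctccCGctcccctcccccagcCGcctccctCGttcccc
Pou3f3 had the longest coverage of all members and lies at chr1:42695518-42695767 on the plus strand, within an intron of the non-coding gene AC122898.1. In this window 63 bases were in a peak, and the annotated start lay inside that peak, shortly after a gap that separates it from the stronger peak upstream.
Pou3f3: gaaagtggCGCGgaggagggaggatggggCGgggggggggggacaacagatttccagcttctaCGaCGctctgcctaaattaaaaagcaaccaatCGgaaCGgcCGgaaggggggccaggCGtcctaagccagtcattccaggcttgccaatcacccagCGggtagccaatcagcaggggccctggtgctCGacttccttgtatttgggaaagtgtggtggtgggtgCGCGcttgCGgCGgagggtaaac
Hoxa5 had the highest ratio of observed to expected CpG of the Hox promoters and lies at chr6:52204588-52204837 on the minus strand, in introns of Hoxa3, Hoxaas3 and Gm28308 transcripts. None of its bases were in a peak.
Hoxa5: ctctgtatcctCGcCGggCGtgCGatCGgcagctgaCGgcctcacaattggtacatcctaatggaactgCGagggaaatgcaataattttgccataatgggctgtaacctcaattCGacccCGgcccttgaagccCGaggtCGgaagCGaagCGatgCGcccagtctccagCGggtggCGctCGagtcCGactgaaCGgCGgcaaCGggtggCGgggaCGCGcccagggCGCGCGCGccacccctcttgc
Pou4f1 had the highest such ratio of the unmarked members outside the Hox clusters and lies at chr14:104468000-104468249 on the minus strand, outside annotated genes. None of its bases were in a peak either.
Pou4f1: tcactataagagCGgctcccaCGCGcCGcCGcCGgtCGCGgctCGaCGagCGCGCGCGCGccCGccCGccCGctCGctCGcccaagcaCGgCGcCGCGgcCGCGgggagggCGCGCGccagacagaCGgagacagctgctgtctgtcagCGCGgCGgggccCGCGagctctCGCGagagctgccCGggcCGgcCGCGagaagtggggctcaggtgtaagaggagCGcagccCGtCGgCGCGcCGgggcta
The windows held 27 CG dinucleotides in Pbx2, 15 in Pou3f3, 28 in Hoxa5 and 47 in Pou4f1. Hoxa5 and Pou4f1 were picked for their CpG ratio, so these counts show no difference between marked and unmarked promoters.

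Most homeobox genes carried no promoter mark. In the replicated list 22 of 115 members (19.1%) were marked, against 61.6% of all protein-coding genes. Pool C marked 24 members (20.9%, against 62.2% of all genes) and pool D marked 20 (17.4%, against 57.8%). All 20 of the pool D members were also marked in pool C, as were 12616 of the 12641 genes that pool D marked. The genes marked in both pools were 57.7% of all genes. No list marked 91 of the members. Any replicated peak within 10 kb of the main TSS was found at 20.9% of members, against 66.9% of all protein-coding genes. Of the 93 members without a replicated promoter peak, 90 had none in that window. An unmarked gene lacks a peak within 1 kb of its starts by definition, and the same share over all unmarked genes is not given here.

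The families differed widely in their counts. All 7 Pbx and Meis genes were marked in every list. Of 15 Pou genes, 7 were marked, of 6 sine oculis-related genes 2, of 11 Pax and Otx genes 2, of 19 Nkx, Msx and Barhl genes 3, and of 8 Lhx and Isl genes 1. None of the 39 Hox, 6 Irx or 4 En and Gbx genes were marked. Outside the Hox clusters 22 of 76 members were marked (28.9%), which was still below the 61.6% of all genes.

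**Figure D1:**
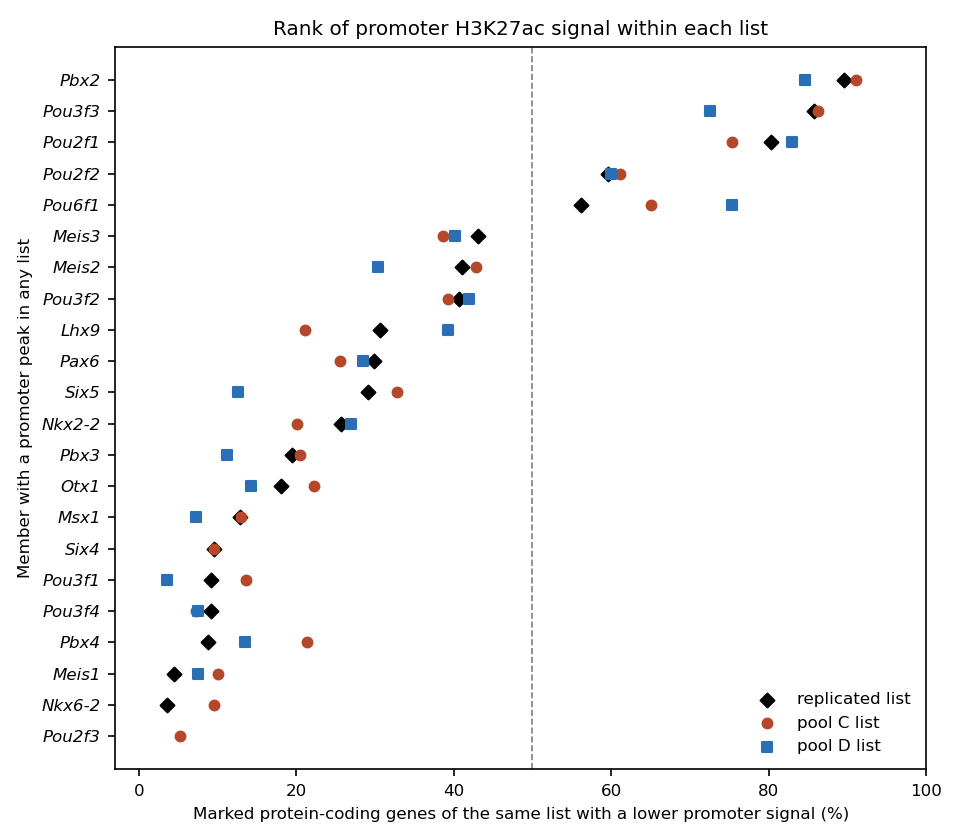
Each row is one of the named members with a promoter peak in any list, and the x axis gives the percentage of marked protein-coding genes of the same list with a lower promoter signal (diamonds replicated list, circles pool C, squares pool D, dashed line 50%). Pbx2, Pou3f3, Pou2f1, Pou2f2 and Pou6f1 lie above the dashed line in all lists shown, and the other members shown lie below it.

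Pbx and Meis proteins are homeodomain cofactors of the TALE class, which pair with each other and with Hox proteins on DNA. Pbx2 had a promoter signal of 24.29 in the replicated list, 28.51 in pool C and 16.15 in pool D. Its replicated signal was higher than that of 89.6% of marked genes in that list. The peak (chr17:34590860-34593926) also lay within 1 kb of a TSS of Gpsm3, so the genes share it. Pbx2 was thus among the stronger promoters of the tissue in each pool.

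Other TALE members were weaker. Meis3 had 12.47 in the replicated list, 13.45 in pool C and 9.02 in pool D. Meis2, a gene of ventral forebrain and olfactory neuron development, had 12.03 in the replicated list, 14.36 in pool C and 7.76 in pool D. Both lay below the median of all marked genes, which was 13.76 in the replicated list, 15.81 in pool C and 10.23 in pool D. Pbx3 had 7.75 in the replicated list, 9.12 in pool C and 5.24 in pool D. Pbx4 had 5.09 in the replicated list, 9.43 in pool C and 5.54 in pool D. Meis1 was the weakest of the family by its replicated signal, with 4.01 in the replicated list, 6.09 in pool C and 4.61 in pool D. Its replicated signal exceeded that of 4.5% of marked genes, and the summit lay 1314 bp upstream of the main TSS.

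Several of these genes are long and held few peaks along their bodies. Meis2 held 3 replicated peaks over 202.8 kb, Pbx3 held 2 over 201.7 kb and Meis1 held 2 over 139.2 kb. The median over the 2484 protein-coding genes of 100 kb or more was 8 peaks, or 4.22 per 100 kb, so all 3 lay below it. Pax5, a long member that was not marked (185.7 kb), held 0 peaks.

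POU factors join a homeodomain to a second DNA-binding domain. The class III genes Pou3f1, Pou3f2, Pou3f3 and Pou3f4, which act in neural progenitors and neurons, were all marked in both pools. Pou3f3 (also called Brn1) had signals of 22.44 in the replicated list, 25.85 in pool C and 13.50 in pool D. Its strongest peak (chr1:42688173-42695452) was 7280 bp wide, the widest among members, with its summit 1823 bp upstream of the TSS. TSSs of the non-coding genes Pantr1 and AC122898.1 lay within 1 kb of it. Pou3f2 (Brn2) had 12.02 in the replicated list, 13.58 in pool C and 9.23 in pool D. Pou3f1, which is used in Schwann cells and in pyramidal neurons, had 5.20 in the replicated list, 7.18 in pool C and 3.82 in pool D. These values are not from the same place. The replicated peak (chr4:124657799-124658174) had its summit 1157 bp downstream of the TSS. The pool D peak (chr4:124656237-124657275) covered the TSS and did not overlap it. A TSS of the non-coding gene Gm2164 lay within 1 kb of each peak. Pou3f4, on the single X chromosome of these males, had 5.20 in the replicated list, 5.33 in pool C and 4.61 in pool D. By the strongest promoter peak of each, the class III genes thus spread from near the top to near the bottom of the marked genes. The strongest Pou3f3 peak did not cover its TSS. The peak that did had a replicated signal of 13.76, equal to the median of all marked genes.

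Other POU genes carried the mark at an alternative start. Pou2f1 (Oct-1), a widely expressed factor, had 20.59 in the replicated list, 21.95 in pool C and 15.73 in pool D, at a start 67709 bp upstream of its main TSS. A TSS of the non-coding gene Gm26665 lay within 1 kb of its peak there. Within 1 kb of the main TSS the replicated signal of Pou2f1 was 7.11. Pou2f2 (Oct-2), best known in B cells, had 15.58 in the replicated list, 18.26 in pool C and 11.54 in pool D, at a start 47238 bp upstream. At its main TSS the replicated signal was 4.97. Pou6f1 had 14.93 in the replicated list, 19.20 in pool C and 14.05 in pool D. In the replicated list this was at a start 13499 bp upstream, with no peak within 10 kb of its main TSS. A TSS of the non-coding gene Gm49492 lay within 1 kb of that upstream peak. Pou6f1 was the only member whose call was lost when the main TSS alone was used, where 21 members were marked against 58.8% of all genes.

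The other 8 POU genes were unmarked in the replicated list. They include Pou1f1, a pituitary factor, Pou4f1, Pou4f2 and Pou4f3, factors of sensory neurons, the pluripotency factor Pou5f1, and Pou5f2 and Pou2f3. Pou2f3, which specifies tuft cells, had a peak in pool C (signal 4.72) and in the combined list of the pools (3.24), and none in pool D.

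Pax6, which directs eye and cortical progenitor development, had a promoter signal of 9.85 in the replicated list, 10.45 in pool C and 7.53 in pool D. Its 6 promoter peaks ran from chr2:105669546 to chr2:105682645. Otx1, a factor of the developing forebrain, had 7.40 in the replicated list, 9.64 in pool C and 5.66 in pool D. Pax1, Pax2, Pax3, Pax4, Pax5, Pax7, Pax8 and Pax9 and the anterior brain and choroid plexus factor Otx2 were unmarked in every list.

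Lhx9 was the only marked gene of the LIM-homeodomain family in this set. It had signals of 10.02 in the replicated list, 9.29 in pool C and 8.86 in pool D, and 3 promoter peaks. Lhx1 and Lhx5, genes of Cajal-Retzius cells, were unmarked, as were Lhx3, Lhx4, Lhx8 and the motor and sensory neuron factors Isl1 and Isl2. Of 3 Cajal-Retzius markers, Trp73 (2.89) and Ndnf (4.86) were marked in the replicated list and Reln was not, and none of the 3 were marked in pool D. The part of that cell type in these calls was not tested.

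Nkx2-2 and Nkx6-2, both factors of the oligodendrocyte lineage, were marked. Nkx2-2 had signals of 9.02 in the replicated list, 9.03 in pool C and 7.34 in pool D. Nkx6-2 had 3.71 in the replicated list and 5.95 in pool C, and no promoter peak in pool D. Its pool C signal exceeded that of 9.5% of marked genes. Oligodendrocyte markers came to 4 of 4 in pool C and 3 of 4 in pool D, and precursor markers to 4 of 4 in pool C and 2 of 4 in pool D. Fewer markers were also marked in pool D for microglia (4 in pool C, 2 in pool D) and interneurons (3 and 1). Counts were equal for excitatory neurons (6 and 6) and astrocytes (5 and 5). The pool D list holds fewer peaks. Whether the share of oligodendrocyte lineage cells bears on Nkx6-2 was not tested. Msx1, a target of BMP signalling, had 6.13 in the replicated list, 6.97 in pool C and 4.55 in pool D.

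The other 16 genes of this group were unmarked in the replicated list. They include Nkx1-1, Nkx1-2, Nkx2-1 (the medial ganglionic eminence and thyroid factor), Nkx2-3, Nkx2-4, the heart factor Nkx2-5, Nkx2-6, Nkx2-9, Nkx3-2, Nkx6-1, Nkx6-3, Msx2, Msx3, Barhl1 and Barhl2.

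Six5, which lies next to the myotonic dystrophy repeat gene in humans, had signals of 9.72 in the replicated list, 12.10 in pool C and 5.45 in pool D. Six4 had 5.32 in the replicated list and 5.95 in pool C, and no promoter peak in pool D. Six2 and the eye and forebrain factors Six3 and Six6 were unmarked. So were the midbrain and hindbrain factors En1, En2, Gbx1 and Gbx2, and Irx1 to Irx6.

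Marked homeobox genes had a lower median promoter signal than all marked genes and a longer median coverage. Their median signal was 9.78 in the replicated list, 9.54 in pool C and 7.64 in pool D, against 13.76, 15.81 and 10.23 for all marked genes of the same lists. In each of these lists 6 members lay above the median of all marked genes. The length in peaks within 10 kb either side of the main TSS, a window of 20 kb, had a median of 3892 bp over the 22 marked members in the replicated list, against 2638 bp over all marked genes. In pool C it was 3971 bp, against 2672 bp over all marked genes. In pool D the medians were closer, at 1922 bp and 1773 bp. The marked members varied widely, from 0 bp at Pou6f1 and 479 bp at Pbx3 to 19403 bp at Pou3f3 in the replicated list.

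**Figure D2:**
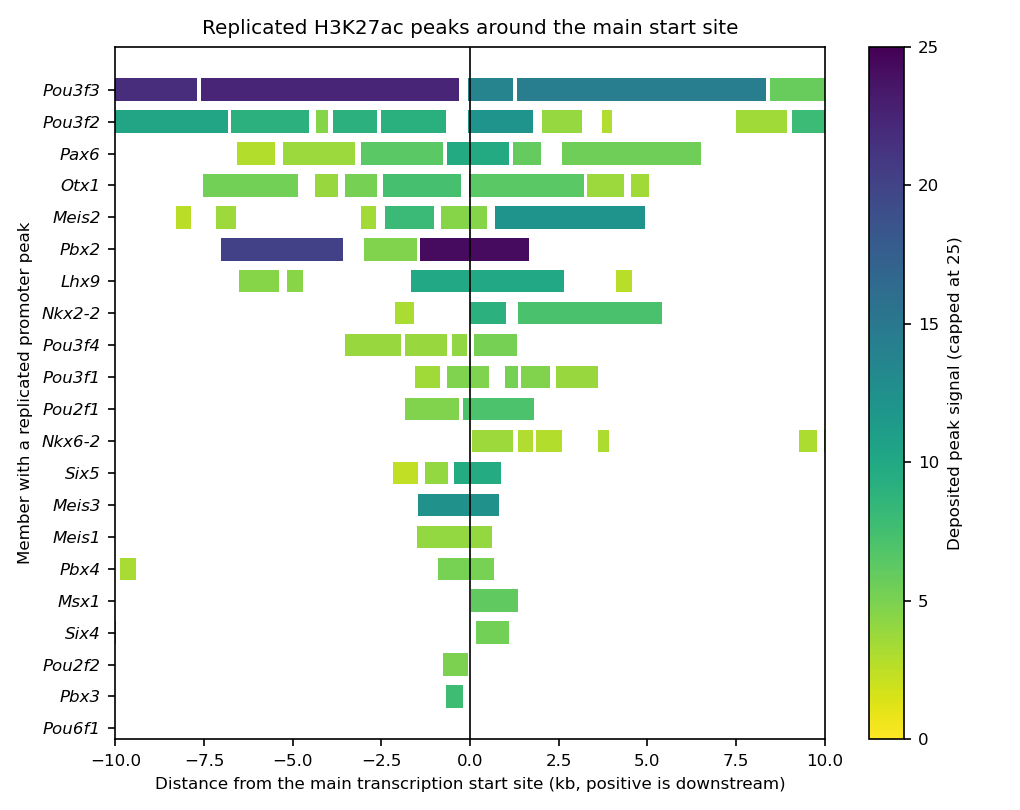
Bars are replicated peaks around the main TSS of the marked members named in the text, drawn in the direction of transcription, with distance in kb on the x axis and the deposited signal as colour. Rows run from the longest coverage at the top (Pou3f3, 19403 bp) to Pou6f1 at the bottom (0 bp), whose peak lies outside the window.

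Coverage was long at several members. Pou3f3 was covered over 19403 bp in the replicated list, 19279 bp in pool C and 17387 bp in pool D, which put it in place 8 of 21853 genes in the replicated list. Pou3f2 was covered over 14407 bp in the replicated list, 14939 bp in pool C and 10801 bp in pool D. Pax6 was covered over 11910 bp in the replicated list, 12055 bp in pool C and 6582 bp in pool D. Otx1 was covered over 11239 bp in the replicated list, 11342 bp in pool C and 6289 bp in pool D. A length of more than 10000 bp, a limit chosen after the values were seen, was reached by 5 of 115 members in the replicated list. These 4 were among them. Of all 21853 genes, 598 reached it (2.74%). In pool C 4 of 115 members reached it, beside 638 of all genes (2.92%). In pool D only Pou3f3 and Pou3f2 of the members did, and 179 of all genes (0.819%).

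Pax6 and Otx1 combined long coverage with signals below the median of marked genes. Pou2f2, with a signal of 15.58 at its upstream start, had 708 bp covered around its main TSS. Pou3f3 was covered on both sides, over 9649 bp upstream and 9754 bp downstream.

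The pools ranked the members alike. Across the 20 members marked in both, Spearman's rho of the promoter signals was 0.91, a description across genes that share the same 2 pools. Covered length was greater in pool C than in pool D at 21 of the 22 members marked in the replicated list, with Pou6f1 at 0 bp in each. The same direction held at 94.6% of all marked genes. Pool D length as a percentage of pool C length had a median of 54.6% at the 21 members covered in pool C. Over all marked genes covered in pool C it was 69%. In proportion, Pou3f4 differed most among members covered in both, with 4728 bp in pool C and 825 bp in pool D. In bp, Pax6 differed most, with 12055 bp in pool C and 6582 bp in pool D.

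**Figure D3:**
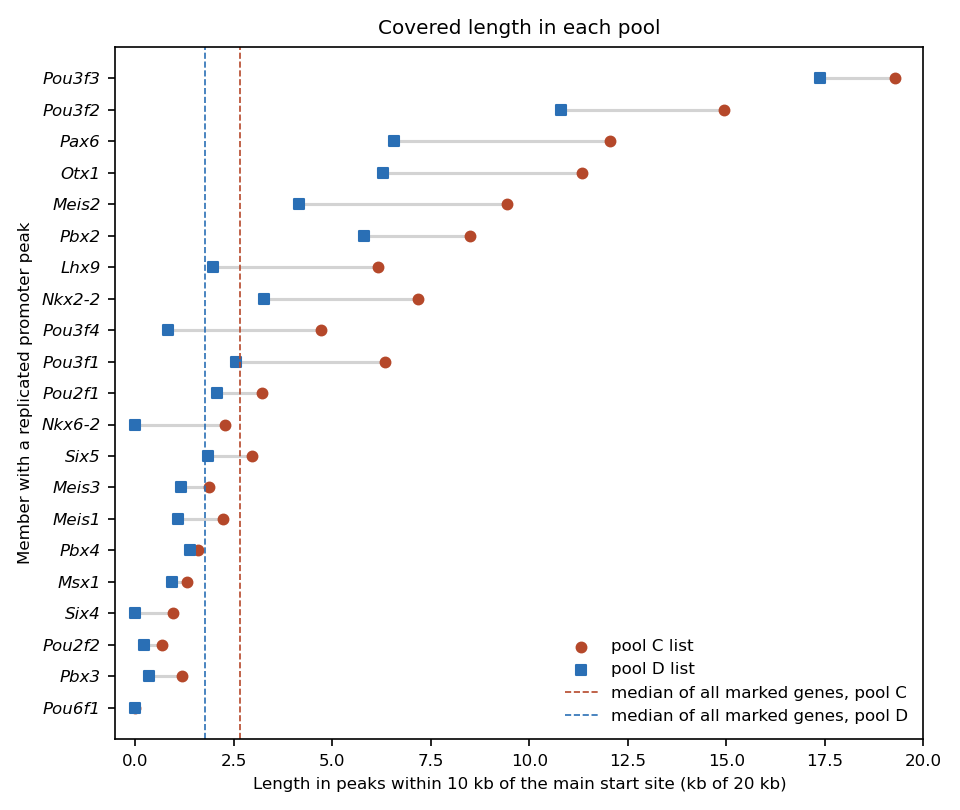
Points give the length in peaks (kb of the 20 kb window) at the named members with a replicated promoter peak in pool C (circles) and pool D (squares), with dashed lines at the medians of all marked genes (2672 bp in pool C and 1773 bp in pool D). Pou3f3 lies farthest to the right in both pools, and Nkx6-2, Six4 and Pou6f1 lie at 0 in pool D.

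The Hox clusters lay in long stretches without any peak. No peak of any of the 4 lists overlapped the HoxA (105.3 kb), HoxB (173.9 kb), HoxC (115.8 kb) or HoxD (96.8 kb) spans, which also hold 18, 9, 7 and 9 annotated non-coding genes. The peak-free stretch in the replicated list was 366.6 kb at HoxA (chr6:52119634-52486237) and 385.9 kb at HoxB (chr11:96076590-96462492). It was 332.0 kb at HoxC (chr15:102803098-103135111) and 243.5 kb at HoxD (chr2:74579496-74822989). The median gap between neighbouring replicated peaks was 4.45 kb, and stretches as long as these were 1.02%, 0.95%, 1.18% and 1.77% of the 88909 gaps. A stretch that holds a whole cluster without a peak is at least as long as the cluster. These shares thus follow in part from the absence of Hox peaks and are no separate measure of rarity.

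The nearest marked gene was sought on each side of each cluster, and distances are from the end of the cluster. At HoxA these were Skap2, 143.0 kb away with a replicated signal of 7.67, and Hibadh, 379.5 kb away with 11.77. At HoxB they were Atp5g1, 118.6 kb away with 13.88, and Skap1, 96.3 kb away with 7.57. At HoxC they were Calcoco1, 198.9 kb away with 9.95, and Smug1, 130.2 kb away with 12.35. At HoxD they were Lnpk, 89.4 kb away with 9.78, and Mtx2, 60.7 kb away with 19.37. Mtx2 and Atp5g1 thus lay above the median of all marked genes (13.76), and the other 6 below it. The Hox genes lay a median of 117727 bp from the nearest replicated peak, against 66475 bp for the unmarked members outside the clusters and 52183 bp for all unmarked genes.

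**Figure D4:**
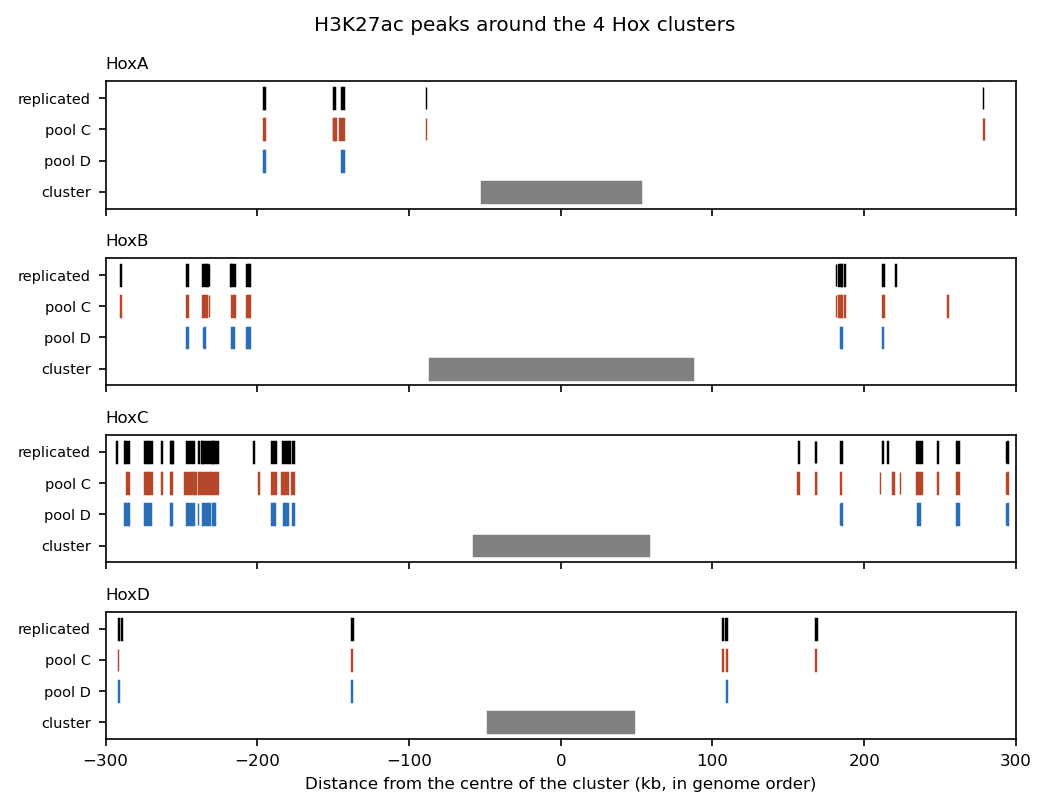
Bars show peaks of the replicated list and of pools C and D within 300 kb of the centre of each Hox cluster (grey bar), with distance in kb on the x axis and a thin outline so that narrow peaks show. No list has a peak inside a cluster, and pool D also has none to the right of HoxA in the range shown.

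Unmarked members were not poorer in promoter CpG than the average gene. The ratio of observed to expected CpG, over 1 kb either side of the main TSS, had a median of 0.661 at marked members and 0.624 at unmarked members. It was 0.604 at Hox genes and 0.481 over all protein-coding genes. With a ratio of 0.6 or more called CpG-rich, 13 of 65 CpG-rich members (20.0%) were marked, against 92.9% of all CpG-rich genes. Among members with less CpG, 9 of 50 were marked, against 45.0% of all such genes. Of the 536 unmarked CpG-rich genes in the genome, 52 (9.7%) were members. Of all 7588 CpG-rich genes, marked or not, 65 were members. CpG-rich members without the mark include Pou4f1 (0.968), En2 (0.934), Hoxa5 (0.887) and Gbx2 (0.883), whereas Pou2f1 (0.195) and Pou6f1 (0.301) had their strongest peak at a start outside that window.

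**Figure D5:**
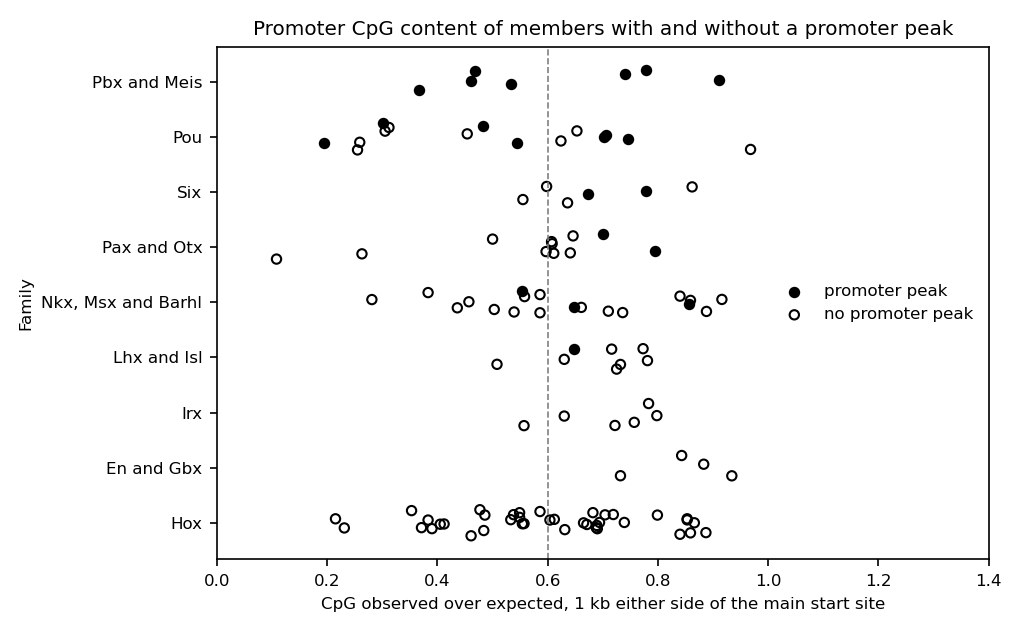
Each point is a member, placed by family and by observed over expected CpG around its main TSS (dashed line at 0.6), filled where a replicated promoter peak was found and open where not. Open points lie on both sides of the dashed line, and the Pbx and Meis row holds filled points only.

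Motifs of the members' own proteins were searched on both strands from 250 bases before to 50 after the RefSeq start, in the 79 members and 16530 genes with a window. The Meis motif TGACAG was in 15 of 79 member windows (19.0%), in 2 of 22 Hox windows (9.09%) and in 18.3% of all windows. The homeodomain core TAATTA was in 3 (3.8%, against 4.62% of all windows), and the POU octamer ATGCAAAT in 0 (against 1.59%). The Pbx with Hox motif TGATTGAT was in 2 of 79 member windows (2.53%), against 0.611% of all windows. Both were among the 22 Hox windows (9.09%). This motif was in 0 of the 18 marked members, too few windows to show a difference. Its reverse complement, in capitals below, lay 111 bases before the start of Hoxa2 (chr6:52164920-52164957, minus strand, in an intron of Gm28308) and 73 bases before a start of Hoxd11 (chr2:74682235-74682272, plus strand, in an intron of a longer Hoxd11 transcript). In Hoxd11 a TAATTA match lies just before it, without overlap. Both genes were unmarked.
Hoxa2: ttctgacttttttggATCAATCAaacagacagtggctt
Hoxd11: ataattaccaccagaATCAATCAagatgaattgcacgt

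Among unmarked members, coverage within 10 kb was found at 3. Nkx6-3 had 2320 bp in peaks that lay inside Ank1, a cytoskeletal ankyrin gene, the nearest 2988 bp upstream. Nkx2-6 had a peak of 670 bp (signal 10.18) 8589 bp upstream. Irx5 had 368 bp of a peak (signal 4.34) 1907 bp upstream, within 1 kb of a TSS of the non-coding gene Crnde. Irx5 was the unmarked member closest to the 1 kb limit, and all 22 marked members also had a peak within 500 bp of a TSS. Pax2 held 2 replicated peaks inside its gene away from its starts, and Pou2f3 held 6.

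The machinery that silences or maintains homeobox genes was itself marked throughout. All 30 Polycomb genes had a promoter peak in each list, against 61.6% of all genes and 92.9% of CpG-rich genes in the replicated list. Among these the PRC2 subunit gene Eed had a signal of 31.99, the chromobox gene Cbx6 27.65 and the histone-binding subunit gene Rbbp4 27.35. The methyltransferase gene Ezh2 had 8.07, and its paralogue Ezh1 had 15.38. All 20 Trithorax genes, whose products keep active genes on, were also marked in each list. Setd1b (45.46) and Kmt2d (41.06), which encode histone methyltransferases, and Psip1 (34.86) had the highest signals. The median signal was 16.94 over the Polycomb genes and 24.49 over the Trithorax genes, against 13.76 over all marked genes. Binding of these proteins and methylation of histones were not measured, so their part in the unmarked members was not tested.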

How the data were processed

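H3K27ac ChIP-seq peaks of hippocampal layer tissue were used as deposited on mm10. The authors deposited a replicated list, a combined list of the pools and a list for each pool, per the samples' file notes. The aligner, the peak caller and read totals were not given in the sources used here. Each peak's signal is the authors' deposited value of unstated scaling, and the −log10 q and the summit offset, in bp from the peak start, were deposited by the authors too. B6CASTF1/J differences from the reference sequence were not analysed here.

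No peak ended beyond its GRCm38 chromosome. Genes and TSSs came from GENCODE M21. A promoter peak overlapped the 1 kb either side of any annotated TSS, and the strongest gave the signal. The main TSS belonged to the coding transcript with the best APPRIS tag, then the longest. Signals were ranked among all marked genes of the list. Named were the members marked in any list, the unmarked by family, except some that are not reported here by name, the 3 strongest genes of the Polycomb and Trithorax lists (Ezh1, Ezh2, the neighbours of the clusters and the sequences of Pou3f3, Pou4f1, Hoxa2 and Hoxd11 were added after their values were seen) and the 3 unmarked members with most coverage. RefSeq promoter windows were matched by symbol for 79 of 115 members. The counting of promoter peaks and covered length was checked on simulated peaks of known place (200 of 200 genes recovered). This does not test the authors' peak calls. The members and lists were chosen with earlier results of these data known. Python 3.11.15, numpy 2.4.6, pandas 2.3.3, scipy 1.17.1, pysam 0.24.0 and matplotlib 3.10.9 were used.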

Additional observations from a re-analysis of the deposited data

How the results depend on the processing

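Counts of marked members, Hox genes, Polycomb genes and Trithorax genes stayed within 1.5 times their reported values in the following settings. They were TSS windows of 500 bp and 2.5 kb, the main TSS alone and a −log10 q of 5 or more. Others were summits in place of any overlap, the list from both pools together, and signals above the median of all peaks in the list. That median lies below the median of marked genes (13.76), above which 6 members lay. The alternative of TSSs of coding transcripts only, chosen after seeing the data, also gave 22 members. Leaving out a pool gave between 20 and 24 members. Hox genes came to 0 and Polycomb genes to 30 in every one of these settings, while Trithorax genes came to 20 except for 19 with the main TSS alone and 18 with summits. Individual calls were lost at Pou6f1 (main TSS only), Meis1 and Nkx6-2 (signal above the median of all peaks) and Meis1 and Pou3f3 (summit). Without pool C, the calls of Nkx6-2 and Six4 were lost. Calls were gained at Irx5 (2.5 kb) and Pou2f3 (both pools together, and without pool D), among others. The median promoter signal of marked members was 7.75 with the main TSS only, against 9.78, as Pou2f1, Pou2f2 and Pou6f1 have their strongest peaks at other starts. The median coverage over all members was 0 bp in each window and list tried. No paired analysis was possible because the samples form 1 group. Depth is unknown, so an absent peak limits no level of the mark.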
